A study of Homo sapiens with 12 samples.

Results

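AP-1 and immediate early genes were described in SW1990 and CFPAC-1, 2 established human pancreatic adenocarcinoma cell lines that had been sorted with the GCTM-5 antibody. The set holds *FOS*, *FOSB*, *FOSL1*, *FOSL2*, *JUN*, *JUNB*, *JUND*, *EGR1*, *ATF3* and *IER3*, taken by gene symbol from the table of 23346 genes. All 10 passed the filter on low values, a mean of at least 0.1 RPKM (reads per kilobase of gene, scaled to library size), as did 16236 genes in all.

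The 4 groups were SW1990 negative, SW1990 positive, CFPAC-1 negative and CFPAC-1 positive for the GCTM-5 antigen, with 3 libraries each and 12 in all. The antigen is a secreted and surface glycoprotein complex that only some cells of either line display, and the gates kept the brightest and the unstained cells. The sources name no transgene or drug. In every group the monolayers were dissociated enzymatically, held cold with the primary antibody, stained with a secondary one and sorted before RNA was extracted, and none of the 12 samples was left unsorted. Each line derives from a single tumour. By the study's methods the 3 samples of a group came from repeated sorts. The sources do not say whether each sort began from a separate culture. The p-values therefore measure the spread between repeated sorts, part of which may be technical. Each gene had 1 estimate of this spread over the 4 groups of both lines, so scatter in CFPAC-1 also entered the tests in SW1990.

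AP-1 is a dimer of basic leucine zipper proteins, formed between JUN proteins or between a JUN and a FOS protein, that binds DNA at the sequence TGANTCA. FOS proteins need a JUN partner, whereas JUN proteins can also pair with each other. *FOS*, *FOSB*, *JUN*, *JUNB*, *EGR1*, *ATF3* and *IER3* are immediate early genes: serum, growth factors, wounding or stress switch them on within minutes, through kinases such as ERK and JNK and without new protein synthesis, and their mRNAs decay quickly. *FOSL1* and *FOSL2* are induced later and held for longer, and *JUND* is transcribed in most resting cells. RAS and ERK signalling is commonly active in pancreatic ductal adenocarcinoma, and ERK is known to stabilise FOSL1.

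The promoters of *FOS*, *FOSB*, *EGR1* and *JUN* are shown because these 4 members differed most between the negative CFPAC-1 libraries. Each line gives the 250 bases before the RefSeq start of the gene, placed on GRCh37 by 1 exact match. Capitals mark TGACG, the core site bound by CREB and ATF proteins (CGTCA on the printed strand where it lies on the other), TGACATCA, a variant site bound by JUN and ATF2, the CArG box bound by serum response factor, and TATAAA, the core promoter element read by TBP.
FOS (chr14:75745281-75745530, plus strand): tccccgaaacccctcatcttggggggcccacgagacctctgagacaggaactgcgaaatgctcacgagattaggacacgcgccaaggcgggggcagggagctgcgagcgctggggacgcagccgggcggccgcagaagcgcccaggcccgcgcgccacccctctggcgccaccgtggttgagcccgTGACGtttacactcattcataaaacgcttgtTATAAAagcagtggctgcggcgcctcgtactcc
FOSB (chr19:45971004-45971253, plus strand): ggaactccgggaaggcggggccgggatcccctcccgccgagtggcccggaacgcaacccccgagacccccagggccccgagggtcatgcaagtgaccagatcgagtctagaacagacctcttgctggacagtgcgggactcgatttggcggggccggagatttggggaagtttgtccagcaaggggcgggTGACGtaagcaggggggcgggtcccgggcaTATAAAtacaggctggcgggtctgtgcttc
EGR1 (chr5:137800918-137801167, plus strand): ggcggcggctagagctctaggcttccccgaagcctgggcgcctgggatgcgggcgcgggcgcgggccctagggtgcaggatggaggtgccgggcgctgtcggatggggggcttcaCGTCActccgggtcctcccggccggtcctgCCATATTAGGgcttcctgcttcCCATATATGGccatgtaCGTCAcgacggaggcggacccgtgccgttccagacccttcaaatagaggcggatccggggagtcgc
JUN (chr1:59249720-59249969, minus strand): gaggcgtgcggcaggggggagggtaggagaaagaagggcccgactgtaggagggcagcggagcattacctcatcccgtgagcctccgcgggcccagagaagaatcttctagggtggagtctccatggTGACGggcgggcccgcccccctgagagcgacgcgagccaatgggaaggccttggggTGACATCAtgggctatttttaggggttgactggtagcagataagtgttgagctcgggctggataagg
*FOS* and *FOSB* each held 1 TGACG upstream of 1 TATAAA, *EGR1* held 2 CArG boxes between 2 TGACG matches, and *JUN* held 1 TGACG and 1 TGACATCA. Searched on both strands in the RefSeq promoters of GRCh38.p14, TGACG was present for 7 of the 8 members that the table holds (*EGR1*, *FOS*, *FOSB*, *FOSL2*, *JUN*, *JUNB* and *JUND*) and in 21.2% of 35116 promoters. The full palindrome TGACGTCA, which contains TGACG on both strands, was in *JUND* and in 1.65% of all promoters. TGACATCA was in *ATF3* and *JUN* and in 2.37% of promoters, the CArG box was in *EGR1* and in 1.16%, and TATAAA was in *ATF3*, *FOS*, *FOSB* and *JUNB* and in 10.7%. TGANTCA was in none of the 9 windows of these 8 members and in 6.57% of all promoters. *ATF3* had 2 of the windows, with TGACATCA in 1 and TATAAA, at bases -230 to -225, in the other. The percentages count promoters, of which a gene can have more than 1. A match describes the letters and not an occupied site. Bases beyond these 250 were not searched, so a missing motif, such as the CArG box in *FOS*, is missing from that window only. *FOSL1* and *IER3* had no entry in the table.

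On GRCh37 the FOS family genes lie at chr14:75745529-75748933 (*FOS*), chr19:45971253-45978437 (*FOSB*), chr11:65659520-65668044 (*FOSL1*) and chr2:28615315-28640184 (*FOSL2*). The JUN family genes lie at chr1:59242517-59249720 (*JUN*), chr19:12902300-12904129 (*JUNB*) and chr19:18390504-18392432 (*JUND*). *EGR1* lies at chr5:137801168-137804992, *ATF3* at chr1:212738676-212794119 and *IER3* at chr6:30710976-30712325, and all 10 are annotated as protein coding.

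Library totals ranged from 9969697 reads in CFPAC-1 positive replicate 3 to 26159330 in CFPAC-1 positive replicate 1, so the members rested on 101 reads or more in every library. The epithelial markers *KRT8*, *KRT18*, *KRT19*, *EPCAM* and *CDH1* were present in all 12 libraries, and all 5 rose in positive SW1990 cells, from a summed 1357 to 1628 RPKM in the negative libraries to 4014 to 4562 RPKM in the positive ones. In CFPAC-1 the same sum was 5222 to 6002 RPKM in negative and 6400 to 7691 RPKM in positive cells. The 14 markers of other cell types summed to 56.1 to 74.2 RPKM in negative SW1990 libraries and 20.4 to 38.0 RPKM in positive ones, and to 121 to 140 RPKM and 114 to 169 RPKM in CFPAC-1, most of it *CD68*. The pan-leukocyte gene *PTPRC* had at most 3 reads in any library, and *GCG* and *CPA1* were listed at 0 in every library. The endothelial cadherin gene *CDH5* was listed at 14.2 to 17.7 RPKM in negative SW1990 libraries and at 1.16 to 1.63 RPKM in positive ones. The other endothelial markers, *PECAM1* and *VWF*, reached at most 0.889 and 0.256 RPKM in any library. The stromal marker *PDGFRB* was listed at 1.47 to 1.98 RPKM in negative SW1990 libraries and at most 0.0702 RPKM elsewhere. The leukocyte marker *CD14* was listed at 8.61 to 9.57 RPKM in negative and 2.60 to 4.31 RPKM in positive CFPAC-1 libraries. Marker levels thus moved with the sort in SW1990, and some, such as *CD14*, *KRT8* and *KRT18*, did so in CFPAC-1 as well. The part of these markers in the values below was not tested. In bulk samples, fewer cells that transcribe a gene and less RNA per cell cannot be told apart.

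One library of the negative CFPAC-1 group stood apart in these genes. In CFPAC-1 negative replicate 1, *FOS* was listed at 216 RPKM against a mean of 891 RPKM in replicates 2 and 3, *FOSB* at 8.60 against 76.2 RPKM, *EGR1* at 51.5 against 334 RPKM and *JUN* at 76.5 against 193 RPKM. These 4 of 10 members lay over 2-fold below both other libraries, as did 80 of 13267 genes with a mean of at least 1 RPKM, or 0.603%. So did 4 of 30 other immediate early genes, the nuclear receptors *NR4A1* and *NR4A2*, the antiproliferative gene *BTG2* and the ERK and p38 phosphatase gene *DUSP1*. *NR4A1* was listed at 0.848 RPKM there, from 48 reads, and at 8.48 and 7.63 RPKM in the other libraries. None of 16 heat shock and chaperone genes did so, and *EPCAM* and *KRT19* stood at 91.5% and 89.8% of the mean of the other libraries. Of the other members, *ATF3* stood at 45.5% of that mean, *JUNB* at 54.5% and *IER3* at 81.3%, whereas *FOSL1*, *FOSL2* and *JUND* stood at 115%, 100.4% and 109%. In all, 7 of 10 members and 23 of 30 other immediate early genes were lowest of their group in this library, against 30.3% of genes.

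CFPAC-1 positive replicate 3, the shallowest library, held *FOS*, *FOSB*, *NR4A1* and *NR4A2* over 2-fold below both other libraries of its group, as it did 1.44% of genes. No other library had a member that far below its group, beside 0.369 to 1.63% of genes. The genes named for these libraries were picked by the 2-fold rule after their values were seen. What set these libraries apart was not tested. The members' changes with the sort in CFPAC-1, and the counts of the gene lists, are therefore given also without negative replicate 1 and, separately, without positive replicate 3.

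**Figure D1:**
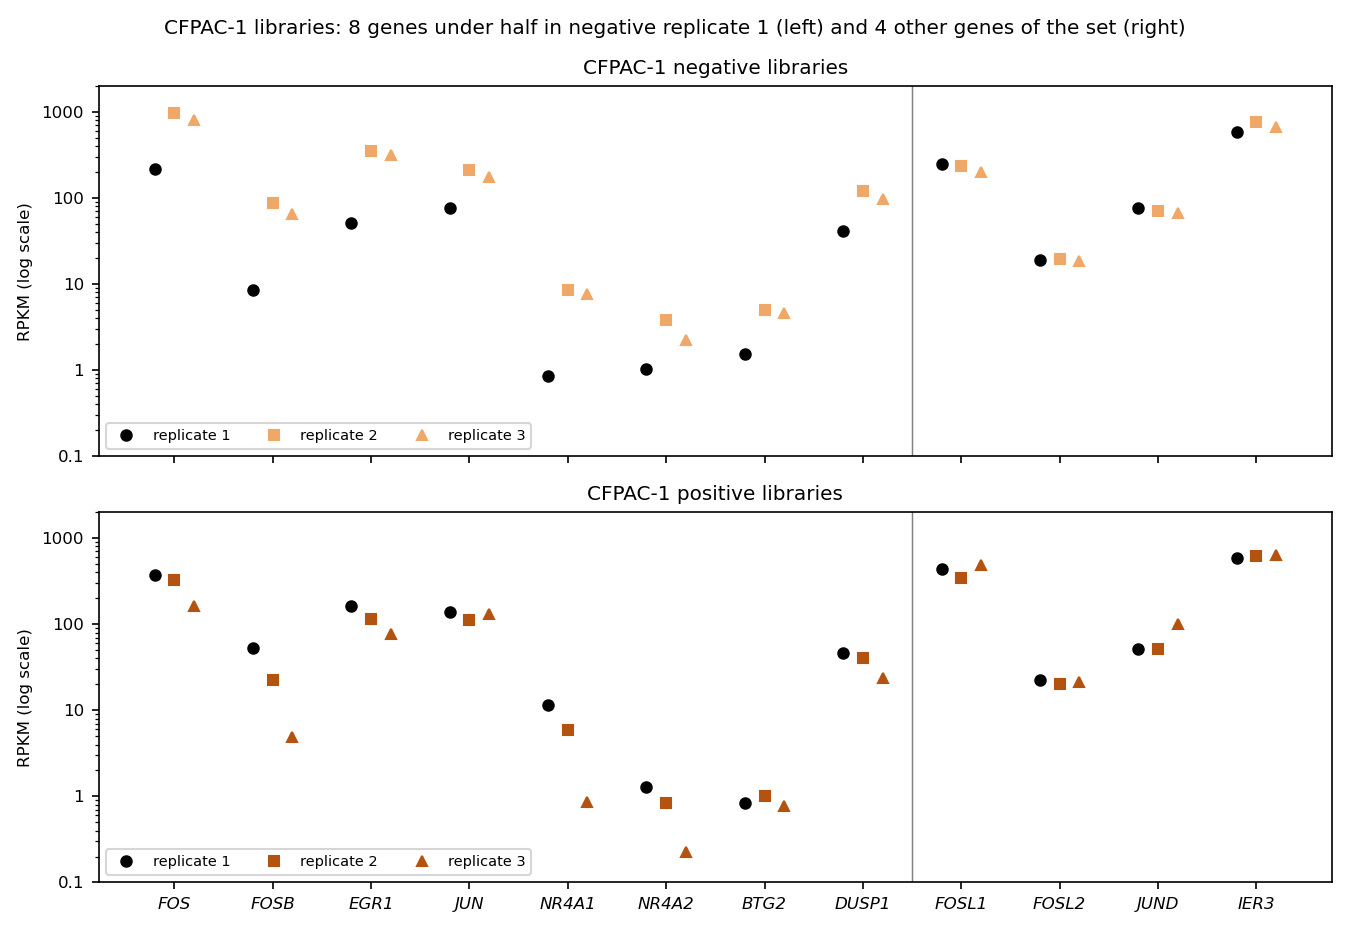
RPKM on a log scale of 8 immediate early genes that lay over 2-fold below both other libraries in CFPAC-1 negative replicate 1 (left of the line) and of 4 other genes of the set (right), in the 3 negative (top) and 3 positive (bottom) CFPAC-1 libraries; replicate 1 is black. In the negative group the black points sit below the others for the 8 genes, for example 8.60 against 86.5 and 65.9 RPKM for FOSB, and are not the lowest for FOSL1, FOSL2 and JUND.

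Because RPKM is per length, levels can be set side by side between genes. *IER3*, which encodes a survival and ERK-regulating protein, was the most abundant member by its mean in every group, averaging 377 ± 58.7 RPKM (SD, n = 3) in negative SW1990, 392 ± 50.4 RPKM in positive SW1990, 674 ± 89.4 RPKM in negative CFPAC-1 and 615 ± 27.9 RPKM in positive CFPAC-1 cells. *ATF3* was the least abundant in every group, at 4.10 to 9.66 RPKM on average. In SW1990 the order below *IER3* was *FOSL1*, *FOS* and *JUNB* in both populations. *FOS* and *JUNB* did not overlap in negative cells and overlapped in positive ones. *JUN*, *FOSL2* and *JUND* followed in a varying order, and neighbours among them overlapped in range. In negative CFPAC-1 cells *FOS* averaged 666 RPKM, next to *IER3*, and ranges of neighbouring genes overlapped from *IER3* down to *JUN*. In positive CFPAC-1 cells *FOSL1* came after *IER3*, at 422 RPKM, with a range that overlapped that of *FOS*. Over the 12 libraries *FOSB* spanned 17.5-fold, *EGR1* 13.4-fold and *FOS* 9.24-fold, whereas *IER3*, *JUND* and *FOSL1* spanned 2.46-fold, 2.52-fold and 2.94-fold.

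**Figure D2:**
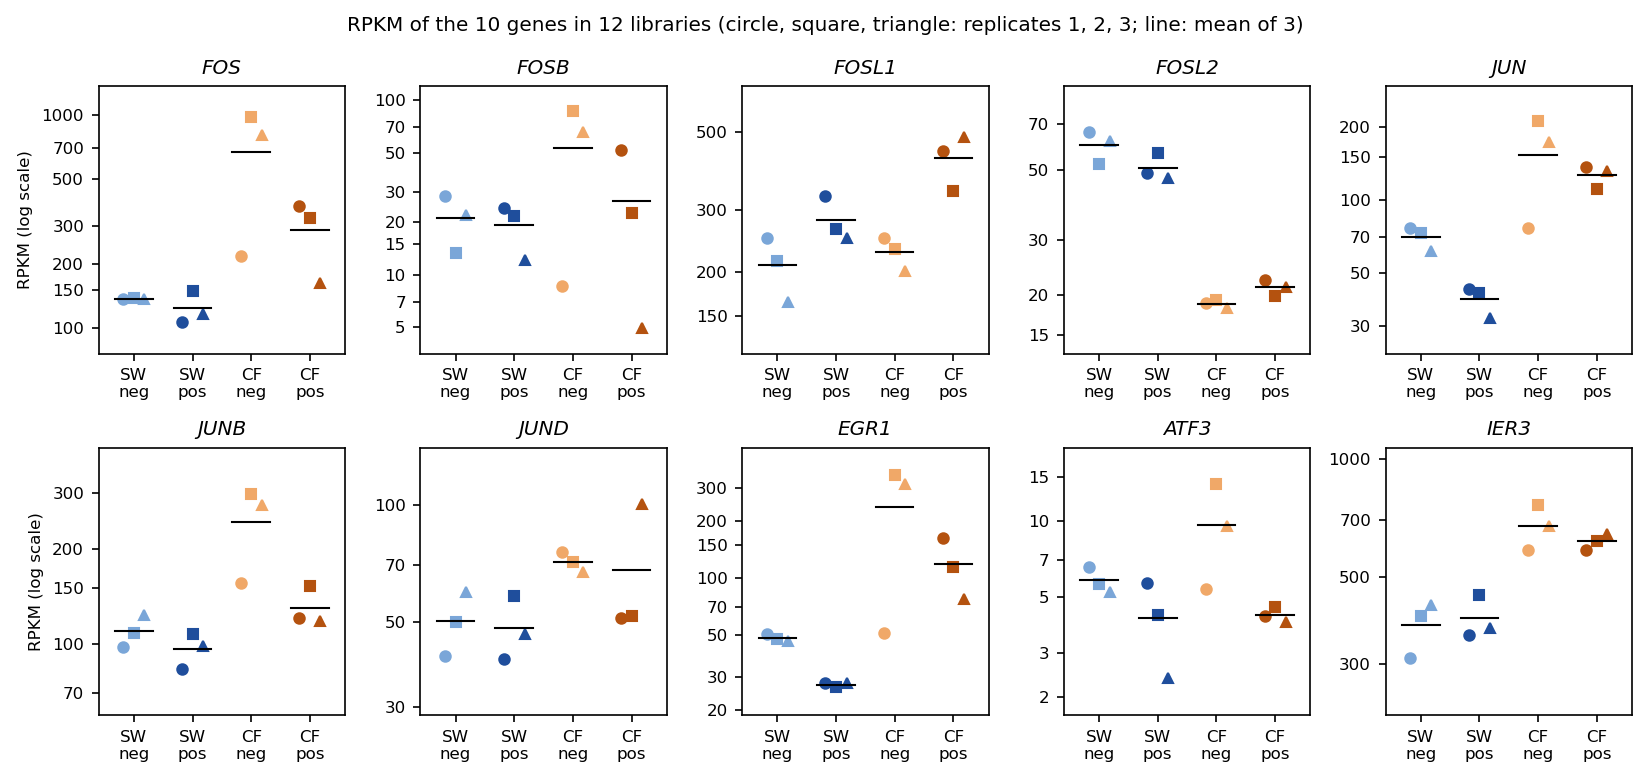
RPKM of the 10 genes on a log scale in each of the 12 libraries, grouped as negative and positive cells of SW1990 (SW, blue) and CFPAC-1 (CF, orange); circles, squares and triangles are replicates 1, 2 and 3 and lines are means of 3. FOS, FOSB, EGR1 and JUN spread widely among negative CFPAC-1 libraries, with the circle lowest, and FOSL1 lies higher in positive than in negative cells of either line.

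The sort comparison asked which members differed between antigen positive and negative cells of a line, tested with limma over all genes with Benjamini-Hochberg adjustment and called at an adjusted p under 0.05. In SW1990, 1 of 10 members was called, *JUN*, which fell, against 28.2% of all genes called, 16.9% lower and 11.3% higher. In CFPAC-1, 3 members were called, *FOSL1* higher and *JUNB* and *ATF3* lower, against 36.5% of all genes, 22.3% higher and 14.2% lower. The share of members called was thus below the background in SW1990 and near it in CFPAC-1. The median log2 change of the members was -0.18 in SW1990 and -0.41 in CFPAC-1, beside medians of -0.04 and 0.05 over all genes. Under the criterion of the study, over 2-fold at an unadjusted p under 0.01, no member passed in SW1990 and *ATF3* did in CFPAC-1, against 12.1% and 9.78% of all genes. Without CFPAC-1 negative replicate 1, the members called in CFPAC-1 were *FOSL1* higher and *FOS*, *JUN*, *JUNB*, *EGR1* and *ATF3* lower, 6 of 10 against 29.5% of all genes (19.2% higher and 10.4% lower), and in SW1990 *JUN* and *EGR1*, 2 of 10 against 26.7%. This library was picked out because *FOS*, *FOSB*, *EGR1* and *JUN* were low in it, and leaving it out raised their negative means. The count of 6 is therefore no test of the members against the background. With CFPAC-1 positive replicate 3 left out as well, the counts were again 6 and 2, against 32.2% of all genes in either line. Leaving out CFPAC-1 positive replicate 3 alone gave 3 members in CFPAC-1, *FOSL1* higher and *JUNB* and *JUND* lower, against 37.9% of all genes, and 1 in SW1990, against 33.3%. For the difference between the lines in this change no member was called, against 26.9% of all genes (9.16% higher and 17.8% lower), 6 of 10 had a positive difference, 2 had an unadjusted p under 0.05 (*FOSL2* and *JUNB*), limma voom on the recovered reads also called none, and none met the criterion of the study, against 14.2%. The line differences of *FOS* and *JUNB* were called without CFPAC-1 negative replicate 1, 2 of 10 against 23.5% of all genes.

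**Figure D3:**
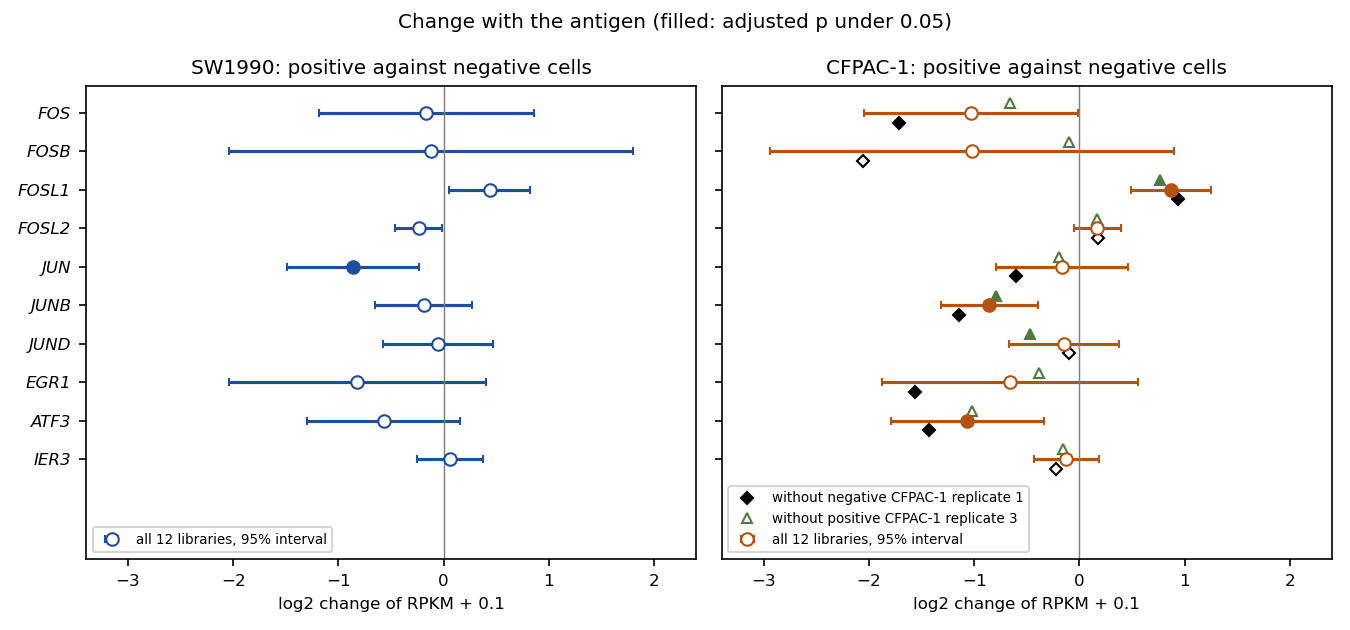
Log2 change of RPKM + 0.1 in positive against negative cells of SW1990 (left) and CFPAC-1 (right) for the 10 genes, with 95% confidence intervals from the fit to all 12 libraries; diamonds and triangles give the CFPAC-1 change without negative replicate 1 and without positive replicate 3, and filled symbols have an adjusted p under 0.05. JUN in SW1990 and FOSL1, JUNB and ATF3 in CFPAC-1 are filled, and the diamonds of FOS, JUN and EGR1 are filled as well, at -1.71, -0.61 and -1.56. Their triangles, without positive replicate 3, are open at -0.66, -0.19 and -0.38.

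*FOSL1* encodes a FOS family protein that lacks the transactivation domain of FOS and is known for its role in the spread of carcinoma cells. In SW1990 it was listed at 249.7, 216 and 165 RPKM in the negative libraries and at 330.3, 265 and 251 RPKM in the positive ones. The CFPAC-1 libraries held 250.1, 233 and 202 RPKM in negative and 442, 339.9 and 484 RPKM in positive cells. Every positive library lay above every negative one in either line, although in SW1990 the lowest positive and the highest negative library nearly met. Ranges did not overlap for 43.3% of all genes in SW1990 and 48.5% in CFPAC-1. *FOSL1* rose in positive CFPAC-1 cells, by 0.87 on the log2 scale (SE 0.17, adjusted p = 0.0026), by 0.94 with CFPAC-1 negative replicate 1 left out (adjusted p = 0.0061) and by 0.77 with positive replicate 3 left out (adjusted p = 0.0093). In SW1990 the difference was 0.44 (SE 0.17, adjusted p = 0.0858), which missed the threshold. With 1 library left out it ran from 0.27 to 0.57, with adjusted p from 0.0428 to 0.318. It was called only without SW1990 negative replicate 1, at 0.57 (adjusted p = 0.0428). The change in SW1990 minus that in CFPAC-1 was -0.44 (95% interval -0.98 to 0.10, adjusted p = 0.216).

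*FOS*, which encodes the prototype short-lived partner of JUN, was listed in SW1990 at 137, 138 and 137 RPKM in negative and 106, 149 and 115 RPKM in positive cells. CFPAC-1 values were 216, 977 and 805 RPKM in negative and 375, 329 and 162 RPKM in positive cells. The negative CFPAC-1 replicates 2 and 3 lay above all positive ones and replicate 1 lay among them. The log2 difference in CFPAC-1 was -1.03 (SE 0.47, adjusted p = 0.104) with all libraries and -1.71 (adjusted p = 0.0020) without that replicate, so *FOS* was called lower in positive cells only with the library left out. Leaving out CFPAC-1 positive replicate 3 instead gave -0.66 (adjusted p = 0.317), and leaving out both gave -1.34 (adjusted p = 0.00044). In SW1990 the difference was -0.17 (SE 0.47, adjusted p = 0.844). The changes of the lines differed by 0.87 (adjusted p = 0.365) with all libraries and by 1.54 (adjusted p = 0.0161) without CFPAC-1 negative replicate 1.

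*FOSB* encodes the family member closest to FOS in sequence and induction. It was listed at 28.4, 13.3 and 21.9 RPKM in negative and at 24.2, 21.8 and 12.2 RPKM in positive SW1990 cells. In CFPAC-1 it was listed at 8.60, 86.5 and 65.9 RPKM in negative and at 52.3, 22.5 and 4.94 RPKM in positive cells. Both CFPAC-1 groups spread over 10-fold, and the groups overlapped in either line. The log2 difference was -0.12 (SE 0.88, adjusted p = 0.951) in SW1990 and -1.02 (SE 0.88, adjusted p = 0.394) in CFPAC-1, which moved between -2.06 (adjusted p = 0.0597) without CFPAC-1 negative replicate 1 and -0.094 (adjusted p = 0.949) without CFPAC-1 positive replicate 3. With both left out it was -1.13 (adjusted p = 0.0901). *FOSB* overlaps *ERCC1* on the other strand, and whether counting used strand is not stated.

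*FOSL2*, whose product also lacks that domain of FOS, was not called with the sort in either line. It was listed at 66.2, 52.2 and 61.9 RPKM in negative and 49.0, 56.7 and 47.2 RPKM in positive SW1990 cells. CFPAC-1 libraries gave 18.9, 19.3 and 18.3 RPKM in negative and 22.5, 19.95 and 21.2 RPKM in positive cells. The groups overlapped in SW1990, where the log2 difference was -0.24 (SE 0.10, adjusted p = 0.109). Without SW1990 negative replicate 2 it was -0.33 (adjusted p = 0.0309). With 1 library left out it ran from -0.33 to -0.16, with adjusted p up to 0.315. The groups did not overlap in CFPAC-1, where the difference was 0.17 (SE 0.10, adjusted p = 0.214). It stayed at 0.17 without negative replicate 1 or positive replicate 3 (adjusted p = 0.308 and 0.267). The difference between the lines in this change, -0.41 (adjusted p = 0.0555), lay close to the threshold. It was called at -0.50 (adjusted p = 0.0198) without SW1990 negative replicate 2 and at -0.49 (adjusted p = 0.0336) without SW1990 positive replicate 2. With 1 library left out it ran from -0.50 to -0.33, with adjusted p up to 0.133.

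As a share of the summed RPKM of the FOS family, *FOSL1* made up 42.7 to 51.9% in negative and 53.8 to 64.9% in positive SW1990 libraries, and these ranges did not overlap. In CFPAC-1 it made up 50.7% in negative replicate 1, 17.7% and 18.5% in the other negative libraries, and 47.8 to 72.0% in the positive ones. *FOS* made up 74.2% and 73.8% in CFPAC-1 negative replicates 2 and 3 and at most 46.2% elsewhere. *FOSL2* made up 9.62 to 16.1% of the family in SW1990 and 1.47 to 3.82% in CFPAC-1. *JUNB* was the largest part of the JUN family in 10 of 12 libraries, and *JUN* in the other two, CFPAC-1 positive replicates 1 and 3.

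**Figure D4:**
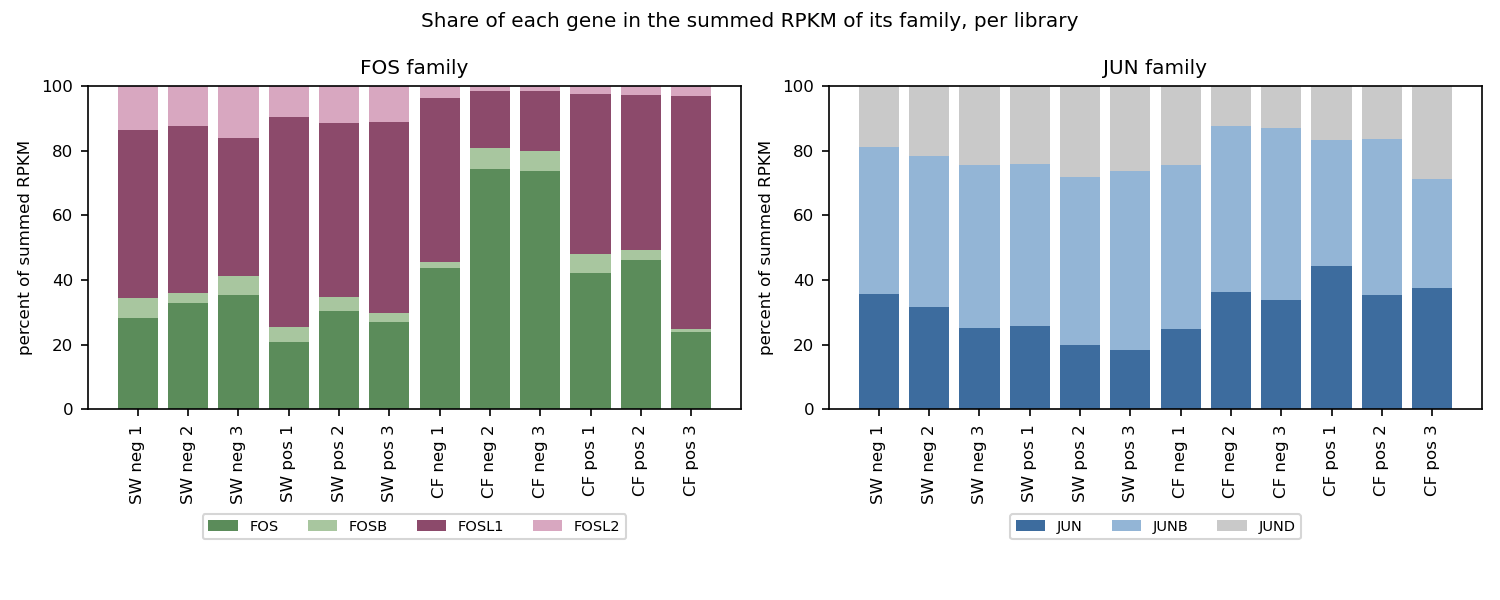
Share of each gene, in percent, in the summed RPKM of the FOS family (left) and the JUN family (right) in each library of SW1990 (SW) and CFPAC-1 (CF). FOSL1 takes 53.8 to 64.9% in positive SW1990 libraries, and FOS takes 74.2% and 73.8% in CFPAC-1 negative replicates 2 and 3.

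*JUN* encodes the strongest activator of its family and the partner through which FOS binds DNA. It was listed at 76.8, 73.1 and 61.5 RPKM in negative and 42.9, 41.3 and 32.4 RPKM in positive SW1990 cells. All positive libraries lay below all negative ones. In SW1990 it fell by 0.86 on the log2 scale (SE 0.29, adjusted p = 0.0429), a call close to the threshold that was lost in 13 of 24 alternatives, with adjusted p from 0.00084 to 0.142 over them and the same direction in each. Each of the 6 SW1990 libraries left out in turn lost it, with log2 changes from -0.96 to -0.74, as did CFPAC-1 positive replicate 1 or 2 left out (adjusted p = 0.0526 and 0.0510). In CFPAC-1 *JUN* was listed at 76.5, 211 and 174 RPKM in negative and 137, 111 and 131 RPKM in positive cells, which overlapped. The CFPAC-1 difference was -0.16 (SE 0.29, adjusted p = 0.694), and -0.61 (adjusted p = 0.0142) without negative replicate 1, which called it lower, and -0.19 (adjusted p = 0.689) without positive replicate 3. Leaving out each library in turn gave -0.61 to 0.13.

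*JUNB* encodes a JUN protein that often opposes JUN in growth control. In SW1990 it was listed at 98.1, 108 and 124 RPKM in negative and 83.5, 108 and 98.5 RPKM in positive cells, which overlapped, and the log2 difference was -0.19 (SE 0.21, adjusted p = 0.565). In CFPAC-1 it was listed at 156, 298 and 275 RPKM in negative and 120.4, 152 and 118 RPKM in positive cells. It fell by 0.86 on the log2 scale there (SE 0.21, adjusted p = 0.0084), and the groups did not overlap although negative replicate 1 nearly met the positive range. The change was -1.15 (adjusted p = 0.00048) without CFPAC-1 negative replicate 1 and -0.79 (adjusted p = 0.0266) without positive replicate 3, and the call was lost with CFPAC-1 fitted alone (adjusted p = 0.0622). The changes of the lines differed by 0.67 (adjusted p = 0.122), and by 0.96 (adjusted p = 0.0059) without CFPAC-1 negative replicate 1. *JUNB* overlaps *HOOK2* on the other strand.

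*JUND*, the family member kept in resting cells, ranged from 40.7 to 59.6 RPKM in negative and 40.1 to 58.3 RPKM in positive SW1990 cells. In CFPAC-1 it ranged from 67.0 to 75.6 RPKM in negative cells and was listed at 51.0, 51.8 and 101 RPKM in positive cells. The groups overlapped in either line. The log2 differences were -0.05 (95% interval -0.57 to 0.47) in SW1990 and -0.14 (95% interval -0.67 to 0.38) in CFPAC-1. Without CFPAC-1 positive replicate 3, the CFPAC-1 difference was -0.47 (adjusted p = 0.0482), and without negative replicate 1 it was -0.10 (adjusted p = 0.825).

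*EGR1* encodes a zinc finger factor induced by serum response factor and ELK1 downstream of ERK. It was listed at 50.6, 47.6 and 46.5 RPKM in negative and 27.7, 26.4 and 27.7 RPKM in positive SW1990 cells. The SW1990 groups were far apart relative to their spread, with means of 48.2 ± 2.10 and 27.3 ± 0.783 RPKM (SD, n = 3). The log2 difference was -0.82 and was not called with the spread estimated over all 4 groups (SE 0.56, adjusted p = 0.316), since CFPAC-1 varied far more. It was called with SW1990 fitted alone (adjusted p = 0.00074) and without CFPAC-1 negative replicate 1 (adjusted p = 0.0125). In CFPAC-1 *EGR1* was listed at 51.5, 352 and 316 RPKM in negative and 164, 115 and 77.3 RPKM in positive cells. There negative replicate 1 lay below every positive library and the others above every one, and the difference was -0.66 (SE 0.56, adjusted p = 0.383) with it and -1.56 (adjusted p = 0.00091) without it. Leaving out positive replicate 3 instead gave -0.38 (adjusted p = 0.669), and leaving out negative replicate 2 gave -0.17 (adjusted p = 0.853), the value nearest 0 with 1 library left out. With both CFPAC-1 libraries that stood apart left out it was -1.28 (adjusted p = 0.00033).

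*ATF3* encodes a stress-induced zipper protein that pairs with JUN proteins and mostly represses. It was listed at 6.58, 5.60 and 5.24 RPKM in negative and 5.69, 4.24 and 2.37 RPKM in positive SW1990 cells, which overlapped (log2 difference -0.57, SE 0.33, adjusted p = 0.236). CFPAC-1 libraries gave 5.37, 14.0 and 9.60 RPKM in negative and 4.21, 4.56 and 3.98 RPKM in positive cells. Every positive library lay below every negative one, and *ATF3* fell by 1.06 on the log2 scale (SE 0.33, adjusted p = 0.0259), and the change was -1.43 (adjusted p = 0.0056) without CFPAC-1 negative replicate 1. The call was lost in 5 of 24 alternatives: with the line fitted alone (adjusted p = 0.0664) and without CFPAC-1 negative replicate 2 (-0.75, adjusted p = 0.112), negative replicate 3 (0.0762), positive replicate 1 (0.0639) or positive replicate 3 (-1.02, adjusted p = 0.0603).

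*IER3* ranged from 311 to 423 RPKM in negative and 356 to 449 RPKM in positive SW1990 cells, and from 584 to 763 and 587 to 643 RPKM in CFPAC-1. The groups overlapped in either line. The log2 differences were 0.06 (95% interval -0.25 to 0.37) in SW1990 and -0.12 (95% interval -0.43 to 0.19) in CFPAC-1, and both turned in sign under quantile normalization. The CFPAC-1 value was -0.22 without negative replicate 1 and -0.16 without positive replicate 3 (adjusted p = 0.302 and 0.478). *IER3* overlaps *IER3-AS1* and *HCG20* on the other strand.

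The comparison of the lines asked how far the members' levels differed at the same antigen state. Between negative cells 6 of 10 members were called, 1 higher and 5 lower in SW1990, against 68.9% of all genes, 40.7% higher and 28.2% lower. Between positive cells 6 were called, again 1 higher and 5 lower, against 62.3%, 32.9% higher and 29.3% lower. By the criterion of the study 5 and 3 members passed, against 36.9% and 28.5% of all genes. *FOSL2* was the 1 member higher in SW1990, with 60.1 ± 7.14 against 18.8 ± 0.50 RPKM in negative cells (log2 difference 1.66, SE 0.10, adjusted p = 3.8e-08) and 50.9 ± 5.04 against 21.2 ± 1.25 RPKM in positive cells (1.26, SE 0.10, adjusted p = 6.4e-07). *FOS*, *JUN*, *EGR1* and *IER3* were lower in SW1990 than in CFPAC-1 in both states, *JUNB* in negative cells and *FOSL1* in positive cells. *EGR1* differed by -1.89 (adjusted p = 0.0094) in negative and -2.05 (adjusted p = 0.0068) in positive cells. *JUN* differed by -1.01 (adjusted p = 0.0079) and -1.70 (adjusted p = 0.00027). With CFPAC-1 negative replicate 1 left out, the differences between negative cells grew to -2.79 for *EGR1* (adjusted p = 1.5e-06), -2.69 for *FOS* (adjusted p = 1.3e-05) and -1.45 for *JUN* (adjusted p = 1.1e-05). Over all single libraries left out they ran from -2.79 to -1.40 for *EGR1*, -2.69 to -1.61 for *FOS* and -1.45 to -0.72 for *JUN*, and each stayed called. With CFPAC-1 positive replicate 3 left out, the differences between positive cells were -2.33 for *EGR1*, -1.52 for *FOS* and -1.68 for *JUN*, each called. *FOS* differed by -2.01 (adjusted p = 0.0021) in negative and by -1.15 (adjusted p = 0.0488) in positive cells, the latter lost in 13 of 22 alternatives, among them any 1 SW1990 library and CFPAC-1 positive replicate 1 or 2 left out (adjusted p = 0.0582 to 0.152). *FOSL1* differed by -0.57 (adjusted p = 0.0128) in positive cells, by -0.50 (adjusted p = 0.0532) without SW1990 positive replicate 3 and by -0.47 without CFPAC-1 positive replicate 3 (adjusted p = 0.0493). *JUND* was lower in negative SW1990 cells only without SW1990 negative replicate 3 (adjusted p = 0.0465) or CFPAC-1 positive replicate 3 (0.0086) and in 4 other alternatives, and *JUNB* was lower in positive ones without CFPAC-1 negative replicate 1 (adjusted p = 0.0161). Ranges of the lines did not overlap for 6 members in negative cells, beside 75.2% of all genes, and for 7 in positive cells, beside 63.9%. Without CFPAC-1 negative replicate 1, *FOSB* (-1.89, adjusted p = 0.0438) and *ATF3* (-0.99, adjusted p = 0.0127) were also lower in negative SW1990 cells. That made 8 of 10 members called against 64.8% of all genes. The library was picked for its low values of members, so this count is no test of the set. The median over all genes was 0.19 in negative and 0.06 in positive cells, and centring each library on its median took the first to 0.01.

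Of the 5 lists of related genes, the other immediate early genes had 3 higher and 16 lower of 34 tested in positive SW1990 cells and 3 higher and 12 lower in CFPAC-1. That was 55.9% and 44.1% called, beside 28.2% and 36.5% of all genes. The list's median log2 change was -0.43 in SW1990 and -0.40 in CFPAC-1, beside -0.04 and 0.05 over all genes. The CFPAC-1 counts were 3 and 16 without negative replicate 1, and 3 and 12 without positive replicate 3, beside 29.5% and 37.9% of all genes. Negative replicate 1 stood apart by low values of immediate early genes, *BTG2* of this list among them. The count without that library is therefore no test of the list. *BTG2* fell in both lines, from 11.3 ± 1.72 to 4.99 ± 0.950 RPKM in SW1990 (-1.17, SE 0.35, adjusted p = 0.0252), while CFPAC-1 went from 3.72 ± 1.89 to 0.882 ± 0.126 RPKM (-1.80, SE 0.35, adjusted p = 0.0021). *SGK1*, a serum-induced kinase gene, fell by 1.82 in CFPAC-1 (SE 0.25, adjusted p = 0.00024) and by 0.93 in SW1990 (SE 0.25, adjusted p = 0.0137). *CTGF*, a target of YAP that encodes a matrix protein, fell by 1.24 in SW1990 (adjusted p = 0.00021). *CYR61*, its close relative, rose by 1.07 in CFPAC-1 (adjusted p = 0.00017). *SOCS3*, an inhibitor of cytokine signalling, and *KLF4*, an epithelial zinc finger factor, rose in SW1990 by 1.01 (adjusted p = 0.0023) and 0.68 (adjusted p = 0.0322), and *PLK2* rose in CFPAC-1 by 0.37 (adjusted p = 0.0073). The SW1990 call of *BTG2* was lost without SW1990 negative replicate 1 or 3 or positive replicate 2 (adjusted p = 0.0594 to 0.0879), and that of *KLF4* without SW1990 negative replicate 2 or 3 or any 1 positive replicate (0.0595 to 0.107).

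Among 15 other bZIP partners of AP-1, 2 rose and 4 fell in SW1990, and 1 rose and 2 fell in CFPAC-1. That was 6 of 15 called in SW1990, beside 28.2% of all genes, and 3 of 15 in CFPAC-1, beside 36.5%. The share called was thus above that of all genes in SW1990 and below it in CFPAC-1. The CFPAC-1 counts were 0 and 0 without negative replicate 1, and 0 and 2 without positive replicate 3. The shares of all genes called in CFPAC-1 were then 29.5% and 37.9%. In SW1990 *BATF*, which dimerises with JUN proteins in leukocytes, rose from 3.61 ± 1.62 to 7.86 ± 2.21 RPKM (log2 change 1.18, SE 0.37, adjusted p = 0.0328), and the small MAF gene *MAFF* rose from 35.9 ± 2.84 to 63.8 ± 14.9 RPKM (0.80, SE 0.15, adjusted p = 0.0013). *ATF2*, a JNK-regulated partner of JUN, fell by 0.62 (adjusted p = 0.0021), and *NFE2L3* fell by 0.30 (adjusted p = 0.0386). In CFPAC-1 *MAFG* rose by 0.51 (adjusted p = 0.0414) and *BATF2* fell by 0.52 (adjusted p = 0.0342). The call of *BATF* was lost without SW1990 negative replicate 1 or any 1 positive replicate (adjusted p = 0.0514 to 0.116), and that of *NFE2L3* without SW1990 negative replicate 2 or 3, any 1 positive replicate or CFPAC-1 negative replicate 3 (0.0503 to 0.151). *BATF2* was lost without any 1 CFPAC-1 negative replicate or CFPAC-1 positive replicate 1 or 2 (0.0703 to 0.135), and *MAFG* without any 1 CFPAC-1 negative replicate, CFPAC-1 positive replicate 1 or 3 or SW1990 positive replicate 2 or 3 (0.0525 to 0.145).

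The kinase inputs and ERK feedback genes had 5 higher and 6 lower of 30 in SW1990 (36.7% called, beside 28.2% of all genes). In CFPAC-1 they had 3 higher and 9 lower (40.0%, near the 36.5% of all genes). The CFPAC-1 counts were 2 and 8 without negative replicate 1, and 5 and 11 without positive replicate 3, beside 29.5% and 37.9% of all genes. *MAP2K1*, which encodes the ERK kinase MEK1, rose in both lines, from 26.9 ± 0.593 to 46.1 ± 1.12 RPKM in SW1990 (log2 change 0.77, SE 0.08, adjusted p = 2.1e-05), while CFPAC-1 went from 30.4 ± 1.78 to 43.6 ± 3.92 RPKM (0.52, SE 0.08, adjusted p = 0.00060). *DUSP5*, a nuclear ERK phosphatase gene induced by ERK itself, rose in SW1990 from 25.1 ± 1.15 to 57.3 ± 5.31 RPKM and fell in CFPAC-1 from 76.1 ± 4.53 to 40.4 ± 9.14 RPKM. The ETS factor genes *ETV5* and *ETV1*, both ERK-responsive, fell in SW1990 by 1.38 (adjusted p = 2.3e-06) and 1.35 (adjusted p = 0.0015). *ETV5* also fell in CFPAC-1, by 0.36 (adjusted p = 0.0215), a call lost in 5 of 24 alternatives. In CFPAC-1 *SPRY1*, a feedback inhibitor of receptor signalling, fell by 0.81 (adjusted p = 0.00052).

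Genes with well-known AP-1 sites had 9 higher and 6 lower of 21 tested in SW1990 (71.4% called, beside 28.2% of all genes). In CFPAC-1 they had 8 higher and 5 lower (61.9%, beside 36.5%). The study had already named *IVL* and *MMP13* as differing with the antigen in these data. These shares are therefore no test of the list. The CFPAC-1 counts were 7 and 1 without negative replicate 1, and 7 and 7 without positive replicate 3, beside 29.5% and 37.9% of all genes. *IVL*, the cornified envelope gene involucrin, rose in both lines, from 0.430 ± 0.262 to 6.08 ± 1.88 RPKM in SW1990 (log2 change 3.61, SE 0.44, adjusted p = 7.2e-05), while CFPAC-1 went from 0.0955 ± 0.0962 to 1.52 ± 0.560 RPKM (3.12, SE 0.44, adjusted p = 0.00033). The negative CFPAC-1 values of *IVL* rested on 8, 0 and 4 reads. *IL8*, the neutrophil chemokine gene, fell in SW1990 from 92.7 ± 18.3 to 17.8 ± 7.44 RPKM and rose in CFPAC-1 from 21.2 ± 4.18 to 77.5 ± 15.0 RPKM. *PLAUR*, the urokinase receptor gene, moved the other way, rising by 0.70 in SW1990 (adjusted p = 0.0048) and falling by 0.83 in CFPAC-1 (adjusted p = 0.0017). *HMOX1*, haem oxygenase, fell by 1.87 in SW1990 (adjusted p = 0.00014). *MMP13*, a collagenase, fell by 1.24 in SW1990 (adjusted p = 0.0157) and by 0.99 in CFPAC-1 (adjusted p = 0.0371). The CFPAC-1 call was lost without any 1 CFPAC-1 negative replicate or positive replicate 2 or 3 (0.0629 to 0.125). There *MMP13* rested on 34, 54 and 34 reads in negative and 41, 16 and 4 reads in positive libraries.

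The heat shock and chaperone genes, which HSF1 induces when proteins unfold, had 3 higher and 2 lower of 17 tested in SW1990. That was 29.4% called, near the 28.2% of all genes. In CFPAC-1 they had 7 higher and 4 lower (64.7%, beside 36.5%). The CFPAC-1 counts were 5 and 4 without negative replicate 1, and 6 and 5 without positive replicate 3, beside 29.5% and 37.9% of all genes. *HSPD1*, a mitochondrial chaperonin gene, rose in both lines, by 0.42 (adjusted p = 0.0356) and 0.76 (adjusted p = 0.0013). In SW1990 *DNAJB1* rose by 0.46 (adjusted p = 0.0061) while *DNAJB4* and *BAG3* fell by 0.57 (adjusted p = 0.0085) and 0.25 (adjusted p = 0.0402). In CFPAC-1 *HSP90AA1* rose by 0.88 (adjusted p = 0.0014), whereas *HSPB1* fell by 0.44 (adjusted p = 0.010) and *HSPA1A* by 0.53 (adjusted p = 0.0017). *HSPA1A* has a near-identical copy, so its value is uncertain. The SW1990 call of *HSPD1* was lost without SW1990 negative replicate 2 or 3, SW1990 positive replicate 1 or 3 or CFPAC-1 negative replicate 2 or 3 (adjusted p = 0.0508 to 0.149), and that of *BAG3* without SW1990 negative replicate 1 or 2, SW1990 positive replicate 2 or 3 or CFPAC-1 negative replicate 2 or 3 (0.0544 to 0.136). Over all genes CFPAC-1 had 3622 higher and 2307 lower calls, and 2795 and 3056 with each library centred on its median.

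The genes whose profile over the 4 group means lay closest to a member were found by Euclidean distance of centred log2 values among 13257 genes with a mean of at least 1 RPKM. *FOSL1* was closest to *SUV39H1*, a histone methyltransferase gene whose means were 9.09 and 12.6 RPKM in SW1990 (negative, then positive) and 10.1 and 19.6 RPKM in CFPAC-1 (distance 0.0684), and to *MRPS15*. *EGR1* was closest to *AHR*, the dioxin receptor gene, whose means in that order were 16.6, 8.91, 54.9 and 33.9 RPKM (distance 0.147), and to *LOC254896*. *JUN* was closest to *IL15* and *MAPRE3*, *JUNB* to *FAM117B* and *RPS29*, *JUND* to *C2CD2* and *SCRN2*, and *FOS* to *LOC100652768* and *C11orf35*. *FOSB* was closest to *ZNF608* and *TMEM81*, *FOSL2* to *CAPRIN2* and *UPF3A*, *ATF3* to *FAHD2B* and *MKRN9P*, and *IER3* to *ZADH2* and *ZNF19*. With 4 groups many genes fit a profile, and none of these pairs was tested.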

How the data were processed

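GCTM-5 positive and negative cells of SW1990 and CFPAC-1 were sorted and sequenced as polyadenylated RNA, in 3 samples per group. The authors aligned reads to hg19/GRCh37 and, with QuasR, divided read counts by library size and gene length to give the deposited RPKM values. Strand use, annotation and handling of multiply matching reads in counting are not given in the sources used here. The labels and the methods name different library kits and secondary antibodies.

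The log2 of RPKM + 0.1 was fitted with limma 3.58.1 in R 4.3.3 (lmFit with 4 group means, contrasts.fit, eBayes with trend) for the 16236 of 23346 genes with a mean of at least 0.1 RPKM. Tests were 2-sided. Each change, in the deposited RPKM, is relative to all genes as scaled by the authors. The TCC test of the study needs counts and was not used. Groups came from the sample labels, and replicate numbers did not enter the fit.

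Whole reads were recovered by finding, for each library, the total that made RPKM times length whole (to 0.01 read) in single-exon genes of GENCODE on GRCh37. All 19654 genes above 0 gave whole reads. Totals were 9969697 to 26159330 reads per library. The procedures were tested on simulated data.

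The members, the lists and the tests were chosen with earlier results of these data known. Named genes were all members and, from each of 5 lists and in each line, the 2 largest and 2 smallest log2 changes among those called at a mean of at least 1 RPKM, plus the 2 genes nearest each member in profile. Some genes that this rule names are not reported here. Alternatives were pseudocounts of 1 and 0.01, no filter, a mean of at least 1 RPKM, median centring, quantile normalization, no trend, a replicate block, each line alone, the criterion of the study, voom on the recovered reads, and each library left out. Leaving out both CFPAC-1 libraries that stood apart was chosen after seeing the data. Coordinates are GRCh37 and promoter sequences are from RefSeq (GRCh38.p14). Figures were drawn with matplotlib 3.10.9 in Python 3.11.15.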

Additional observations from a re-analysis of the deposited data

Results flagged for a closer look

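Among the genes named from the lists, 15 were picked out because the change with the antigen differed between the lines, by limma's test of that difference (change in SW1990 minus change in CFPAC-1, adjusted p from 1.3e-05 to 0.0364). These genes were named by a rule on the size of their change in one line, so their number is no measure of how often such differences occur. Values are log2 differences.

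The largest in size were those of *IL8*, at -4.30 (-2.43 in SW1990 and 1.87 in CFPAC-1), *HMOX1*, at -2.80 (-1.87 and 0.93), and *DUSP5*, at 2.12 (1.18 and -0.93), each of which was called in both lines with opposite signs. *CYR61* differed by -1.54 (-0.47 and 1.07) and *PLAUR* by 1.53 (0.70 and -0.83), also called in both lines with opposite signs. The CFPAC-1 call of *HMOX1* was lost with that line fitted alone (adjusted p = 0.0663) and without CFPAC-1 negative replicate 3 or positive replicate 1 (0.0504 and 0.0553). The SW1990 call of *CYR61* was lost without SW1990 negative replicate 1 or 2 or positive replicate 2 or 3 (0.0580 to 0.0862). Both kept their direction under these alternatives. *BATF* differed by 1.76, *SOCS3* by 1.46, *CTGF* by -1.10, *MAFF* by 1.07 and *ETV5* by -1.02. *SPRY1* differed by 0.90, *MAFG* by -0.79, *DNAJB1* by 0.71, *HSPA1A* by 0.61 and *PLK2* by -0.41. The median difference over all genes was -0.15, so the smallest negative values are to be read against that shift.

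Groups of 3 libraries are too small for the test of single outlying samples, so none was made.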

How the results depend on the processing

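The number of members called depended on the setting. In SW1990 it was 1, and 0 under no filter, median centring, no trend, the criterion of the study and the replicate block, but 2 under quantile normalization, with the line fitted alone and with both CFPAC-1 libraries that stood apart left out. In CFPAC-1 it was 3, and 1 under the criterion of the study or with the line fitted alone, and 6 with both libraries left out, which also gave 2 for the difference between lines. Between positive cells 3 members passed the criterion of the study. Leaving out 1 library at a time gave 0 to 2 members in SW1990, 2 to 6 in CFPAC-1, 0 to 2 for the difference between lines, 6 to 8 between negative and 4 to 7 between positive cells. Calls over all genes then ran from 3472 to 5419 in SW1990, 4358 to 6161 in CFPAC-1 and 3352 to 5076 for that difference. They ran from 10412 to 11674 between negative and 9189 to 10235 between positive cells. With all 12 libraries 28.2%, 36.5%, 26.9%, 68.9% and 62.3% of 16236 genes were called, in that order. Over all genes the criterion of the study gave 1961 calls in SW1990, 1588 in CFPAC-1, 2301 for the difference between lines, 5993 between negative and 4627 between positive cells.

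Same-numbered libraries deviated together with r of 0.18, 0.016 and 0.12 in SW1990 and of -0.020, 0.0013 and -0.059 in CFPAC-1. Differently numbered ones gave r from -0.25 to 0.16 in SW1990 and from -0.033 to 0.042 in CFPAC-1. The numbers were not taken as pairs in the main fit. With 3 libraries per group these values cannot show whether same-numbered libraries came from 1 sort. With the replicate block 4386 genes were called in SW1990, 5729 in CFPAC-1 and 4130 for the difference between lines, against 4581, 5929 and 4374 without it. The block lost *JUN* (adjusted p = 0.0509), *NFE2L3* (0.0566), *KLF4* (0.0710) and *BAG3* (0.0716) in SW1990 and the line difference of *PLK2* (0.0733), and changed no other call given here.

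Values near 0 turned in sign. *IER3* was -0.011 in SW1990, 0.016 in CFPAC-1 and -0.027 for the difference under quantile normalization, and *PLK2* was 0.010 in SW1990 under median centring. *FOSB* between positive cells was -0.017 under quantile normalization, -0.11 with voom and -0.88 with both libraries left out, which also took the line difference of *EGR1* to 0.46. With 1 library left out, SW1990 changes ran from -0.42 to 0.18 for *FOSB*, -0.20 to 0.081 for *JUND*, -0.074 to 0.15 for *IER3*, -0.081 to 0.016 for *PLK2* and -0.015 to 0.13 for *HSPA1A*. In CFPAC-1 they ran from -0.61 to 0.13 for *JUN* and -0.47 to 0.023 for *JUND*. Line differences ran from -0.028 to 1.94 for *FOSB*, -0.076 to 0.42 for *JUND* and -0.65 to 0.74 for *EGR1*. *FOSL1* between negative cells ran from -0.27 to 0.028, and between positive cells *FOSB* ran from -0.88 to 0.81 and *ATF3* from -0.41 to 0.21. The cause of these changes was not tested. The line differences of *MAFG*, *PLK2* and *BATF* were lost in 13, 12 and 5 of 23 alternatives. *ATF3* rested on 101 reads in the shallowest library, which limits the precision of that gene.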
